A study of Mus musculus with 30 samples.

Results

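The 5 genes *Runx1*, *Ncam1*, *Hdac4*, *Hdac9* and *Dach2*, whose transcripts respond to loss of innervation in skeletal muscle, were followed in Mtm1KO mice and their WT littermates, in gastrocnemius, diaphragm, heart and liver. These 5 genes were chosen by symbol from the 36103 genes of the count table, and each symbol matched 1 row. Mtm1KO mice (*Mtm1*-/y) carry a knock-out of the X-linked gene for myotubularin, a phosphatase of phosphoinositides, in every cell. They model X-linked myotubular myopathy, and both genotypes were bred on a pure 129Pas background and received no treatment. Tissues were taken at 5 weeks of age, and the transcriptome was measured by RNA-seq of polyadenylated RNA in 30 libraries. The gastrocnemius and the heart gave 4 WT and 4 Mtm1KO libraries each, the diaphragm 4 and 3, and the liver 3 and 4. The study's methods count these libraries as mice, all male, but the labels do not say which tissues came from the same mouse.

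In an innervated fibre, electrical activity keeps a set of genes silent outside the synapse. When the nerve is cut or silent, HDAC4, a class IIa histone deacetylase, accumulates and represses *Dach2*, which encodes a corepressor. DACH2 otherwise holds down *Myog*, the gene for the muscle transcription factor myogenin, and myogenin in turn activates the acetylcholine receptor genes. HDAC9, another class IIa deacetylase that binds MEF2 factors, is known to fall with *Dach2* after denervation, whereas RUNX1, a transcription factor, and NCAM1, a cell adhesion molecule of the synapse and of regenerating fibres, are known to rise. In the heart, which contracts without motor innervation, the same genes served as the comparison.

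The transcript of the targeted gene was lower in each tissue of Mtm1KO mice but was still read. Levels are given as counts per 1000000 library counts (CPM), scaled by TMM over the 30 libraries, with the SD between libraries. *Mtm1* fell from 21.1 ± 0.738 CPM (n = 4) to 5.11 ± 0.647 CPM (n = 4) in the gastrocnemius, and the Mtm1KO libraries of the diaphragm, the heart and the liver lay between 3.49 and 8.08 CPM against 15.5 to 27.0 CPM in WT. Tissue identity followed the labels, with the creatine kinase gene *Ckm* at 18107 to 36662 CPM in the gastrocnemius and the cardiac myosin gene *Myh6* at 17616 to 23456 CPM in the heart against at most 379.8 CPM in both skeletal muscles. Libraries held 24873817 to 44289343 counts. The diaphragm libraries were uneven in hepatocyte genes, whose summed level over the 8 markers ran from 403.6 to 43884 CPM. Log2 fold changes are those of Mtm1KO over WT in edgeR's quasi-likelihood fit of 1 tissue, given with the standard error (SE). Where no other tool is named, adjusted p-values are edgeR's, after Benjamini-Hochberg correction over every gene in the fit, and "rose" or "fell" means that this value was under 0.05.

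The start regions of 4 of the genes were taken from the RefSeq promoters of the mouse build GRCm38.p6, each 250 bases before and 50 after a transcription start, and were searched on both strands for the E-box CANNTG, the letters that the MyoD and myogenin family binds, and for the Runx letters TGTGGT. Among 32851 promoters of this length, 72.3% held an E-box and 16.8% the Runx letters. These 4 windows are printed 5′ to 3′ on the strand of the gene, to set *Runx1*, the gene with the greatest change, beside both deacetylases and *Dach2*. Capitals mark the letters found.
Runx1, chr16:92826025-92826324, minus strand: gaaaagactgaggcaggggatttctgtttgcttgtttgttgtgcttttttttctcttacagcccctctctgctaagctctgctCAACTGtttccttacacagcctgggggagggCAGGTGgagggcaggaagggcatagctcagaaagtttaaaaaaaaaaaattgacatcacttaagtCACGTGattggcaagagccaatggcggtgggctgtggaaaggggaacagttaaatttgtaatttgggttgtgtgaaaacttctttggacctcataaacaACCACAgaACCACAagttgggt
Hdac4, chr1:92180292-92180591, minus strand: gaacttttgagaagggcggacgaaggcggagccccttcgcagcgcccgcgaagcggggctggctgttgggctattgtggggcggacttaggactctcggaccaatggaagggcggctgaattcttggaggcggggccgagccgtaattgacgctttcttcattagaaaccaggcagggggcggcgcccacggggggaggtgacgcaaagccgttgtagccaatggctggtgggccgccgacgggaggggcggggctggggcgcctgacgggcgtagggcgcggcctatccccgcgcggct
Hdac9, chr12:34917046-34917345, minus strand: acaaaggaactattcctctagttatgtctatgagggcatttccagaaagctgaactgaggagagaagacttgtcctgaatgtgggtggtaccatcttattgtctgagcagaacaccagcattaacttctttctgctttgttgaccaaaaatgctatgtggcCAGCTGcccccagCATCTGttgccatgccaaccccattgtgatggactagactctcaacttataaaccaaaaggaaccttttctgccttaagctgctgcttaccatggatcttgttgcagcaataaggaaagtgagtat
Dach2, chrX:113298006-113298305, plus strand: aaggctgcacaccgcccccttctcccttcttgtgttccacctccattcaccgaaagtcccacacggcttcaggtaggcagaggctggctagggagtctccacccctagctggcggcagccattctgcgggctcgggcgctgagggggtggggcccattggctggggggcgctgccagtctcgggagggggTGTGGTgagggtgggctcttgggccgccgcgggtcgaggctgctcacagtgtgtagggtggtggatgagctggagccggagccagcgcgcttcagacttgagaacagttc
This *Runx1* window, the upstream one of 2 in the table, held 3 E-boxes at positions -167, -136 and -71 from the start, and 2 copies of the Runx letters at 29 and 37, on the reverse strand and therefore read as ACCACA. The downstream *Runx1* window held neither motif. The *Hdac4* window also held neither, the *Hdac9* window held E-boxes at -89 and -76, and the *Dach2* window held 1 copy of the Runx letters at -60. The other *Hdac9* window had 3 E-boxes and the other *Dach2* window 1. These matches describe letters and not bound sites.

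*Runx1*, *Ncam1* and *Hdac4* rose in the Mtm1KO gastrocnemius, while *Hdac9* and *Dach2* did not pass the test there. Over the whole table, which had 15456 tested genes in this muscle, the share that rose was 14.1% and the share that fell 14.9%, and in 15.6% every Mtm1KO library exceeded every WT library.

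*Runx1* (chr16:92601466-92826149, minus strand, GRCm38) encodes a DNA-binding subunit of core binding factor and is scarce in innervated fibres. The WT gastrocnemius libraries read 3.07, 2.42, 2.67 and 1.48 CPM, and the Mtm1KO libraries 50.1, 31.9, 31.8 and 16.2 CPM. The genotypes did not overlap, and the lowest Mtm1KO library stood above every WT library. The mean went from 2.41 ± 0.674 CPM (n = 4) to 32.5 ± 13.9 CPM (n = 4), and the fitted log2 fold change was 3.73, with an SE of 0.35 (adjusted p = 0.000156). In bulk tissue, fewer cells of a type and less RNA per cell cannot be told apart, and this holds for every level given here. Leaving out any 1 library gave between 3.45 and 3.97, with an adjusted p of at most 0.0013.

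*Ncam1* (chr9:49502136-49798925, minus strand) encodes a membrane protein that is confined to the synapse in adult fibres and spreads over the surface when they are denervated. WT gastrocnemius libraries read 18.2, 14.9, 12.1 and 12.9 CPM, against 64.0, 50.9, 39.5 and 46.5 CPM in Mtm1KO. Again the genotypes were apart, with a smaller ratio than for *Runx1* and a higher starting level. The log2 fold change was 1.77 (SE 0.16, adjusted p = 0.000154).

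*Hdac4* (chr1:91928779-92195699, minus strand) was already abundant in WT. Its WT gastrocnemius libraries read 42.8, 44.2, 32.8 and 37.7 CPM and its Mtm1KO libraries 77.0, 55.0, 54.2 and 53.3 CPM. Of the Mtm1KO libraries, 3 lay close together and replicate 1 above them, and all 4 exceeded WT. It rose by 0.59 on the log2 scale (SE 0.13, adjusted p = 0.00965), and without replicate 1 the value was 0.45 and still passed. In the annotation, 3536 exonic bases of *Hdac4* are shared with the lincRNA *Gm26720* on the opposite strand. Only reads with 1 possible gene were counted, and the strand setting of the counting is not given in the sources used here. If strand was not used, reads over these bases could have been left out of the *Hdac4* counts. How many *Hdac4* reads this concerned was not tested.

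*Dach2* (chrX:113297510-113836386, plus strand), the gene that HDAC4 represses, read 1.47, 1.39, 3.15 and 1.20 CPM in the WT gastrocnemius and 0.556, 1.72, 0.611 and 0.715 CPM in Mtm1KO. In Mtm1KO, 3 libraries lay below all WT libraries, and the remaining one lay within the WT range. Its log2 fold change was -1.04 with a 95% interval of -2.02 to -0.06, but it missed the threshold (adjusted p = 0.102). The counts behind these levels were 20 to 98 per library. A single library decided the call. Without Mtm1KO replicate 2 the value was -1.54 and passed (adjusted p = 0.019), and without WT replicate 3 it was -0.61 (adjusted p = 0.30).

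*Hdac9* (chr12:34047580-34917095, minus strand) read 8.22, 12.7, 12.3 and 16.6 CPM in WT and 10.7, 14.4, 9.93 and 7.0 CPM in Mtm1KO gastrocnemius. The ranges overlapped over most of their length. Its log2 fold change was -0.26, with a 95% interval of -0.81 to 0.28 (adjusted p = 0.445).

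**Figure D1:**
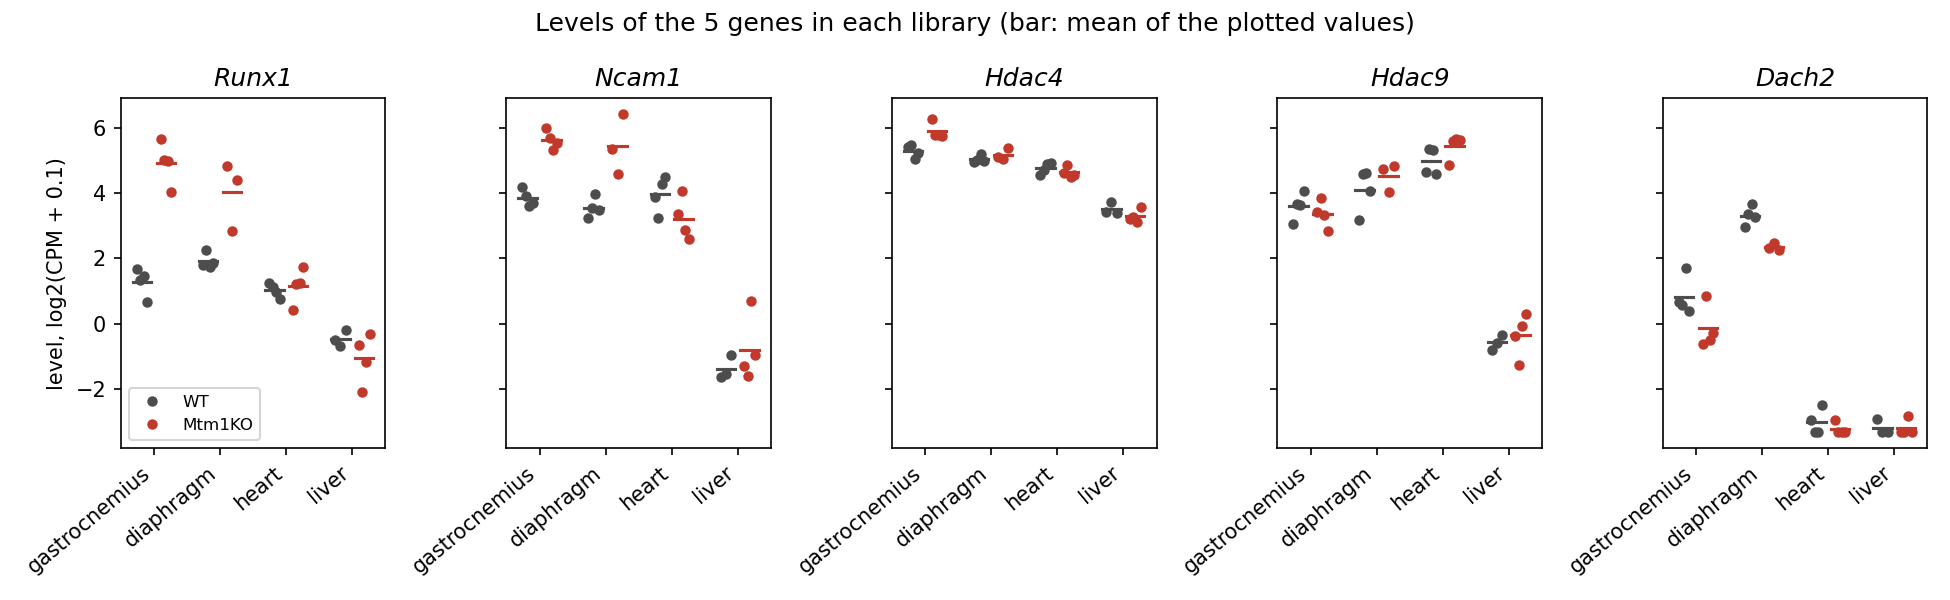
Level of each gene in every library, as log2(CPM + 0.1), by tissue on the horizontal axis; grey points are WT libraries, red points Mtm1KO libraries and short bars the mean of the plotted values. *Runx1* and *Ncam1* stand apart between genotypes in the gastrocnemius and the diaphragm and overlap in the heart, and *Dach2* lies near the bottom of the axis in the heart and the liver.

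Expressed per length, the order of the genes changed between genotypes. In CPM per kilobase of exon (RPKM, with TMM), *Hdac4* was the highest of the 5 in the WT gastrocnemius at 2.49 ± 0.329 RPKM (n = 4), followed by *Ncam1* at 1.68 ± 0.313, *Hdac9* at 0.848 ± 0.233, *Runx1* at 0.200 ± 0.056 and *Dach2* at 0.183 ± 0.0915 RPKM. The last pair in that order overlapped within their SD. In the Mtm1KO gastrocnemius *Ncam1* led at 5.79 ± 1.19 RPKM, *Hdac4* followed at 3.79 ± 0.723 and *Runx1*, at 2.71 ± 1.15 RPKM, stood above *Hdac9* at 0.715 ± 0.207 RPKM. These are levels of whole genes over the union of their exons, so transcripts of different length are pooled.

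The diaphragm gave a less certain picture. *Runx1* and *Ncam1* were higher in each Mtm1KO library than in any WT library and *Dach2* was lower, but none of the 5 genes passed edgeR's test, in which 0.0119% of 16796 genes were called in either direction. At an unadjusted p under 0.05, which 10.8% of genes reached, these 3 of the 5 passed. With DESeq2 on the same counts *Runx1*, *Ncam1* and *Dach2* passed, where 1.7% of the genes with an adjusted p were higher and 0.671% lower. The genotypes were apart in 4.75% of the genes tested with Mtm1KO above and in 5.26% with Mtm1KO below.

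The WT diaphragm libraries held *Runx1* at 3.36, 4.73, 3.24 and 3.50 CPM, and the 3 Mtm1KO libraries, which carry the replicate numbers 1, 2 and 4, at 28.0, 7.10 and 21.2 CPM. Mtm1KO replicate 2 stood far nearer to WT than the others did. On the log2 scale this was 2.34 (SE 0.42, 95% interval 1.36 to 3.32, adjusted p = 0.264), and DESeq2 gave 2.37 (adjusted p = 1.26e-05).

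*Ncam1* read 9.25, 11.5, 15.7 and 11 CPM in the WT diaphragm and 41.0, 23.8 and 85.6 CPM in Mtm1KO. Replicate 2 was again the lowest of the Mtm1KO libraries, and replicate 4 the highest. EdgeR's value was 2.09 (SE 0.42, adjusted p = 0.265) and DESeq2's 2.11 (adjusted p = 0.000146). When Mtm1KO replicate 2 was left out, edgeR called both *Runx1*, at 2.72 (adjusted p = 0.022), and *Ncam1*, at 2.43 (adjusted p = 0.046).

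That library also held the most hepatocyte RNA, with the 8 markers summing to 43884 CPM against 2705 and 722.3 CPM in Mtm1KO replicates 1 and 4 and 403.6 to 34354 CPM in WT. After 3033 liver-enriched genes were removed before the fit, the adjusted p of both genes was 0.138. The sum of 7 fibroblast markers did not overlap between genotypes in this muscle, at 1979 to 4100 CPM in WT and 4248 to 8586 CPM in Mtm1KO. None of the 7 passed edgeR, and 5 had an unadjusted p under 0.05, beside 10.8% of all genes. By DESeq2 4 were higher, beside 1.7% of all genes. The part of these cells in the values of the 5 genes was not tested.

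*Dach2* was more abundant in the diaphragm than in the gastrocnemius. WT libraries read 7.68, 10.2, 12.6 and 9.43 CPM, and Mtm1KO libraries 4.91, 5.41 and 4.72 CPM. The Mtm1KO libraries were tightly grouped below WT, and here replicate 2 did not stand apart. The fold change on the log2 scale was -0.98 (SE 0.19, 95% interval -1.42 to -0.54, adjusted p = 0.264), and DESeq2 gave -0.97 (adjusted p = 0.00109).

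Neither deacetylase gene differed between genotypes beyond the spread of the diaphragm libraries. *Hdac4* lay at 30.6 to 36.5 CPM in WT and 32.8 to 41.5 CPM in Mtm1KO, a log2 fold change of 0.16 (95% interval -0.14 to 0.45, adjusted p = 0.74). *Hdac9* ran from 8.96 to 24.3 CPM in WT and from 16.1 to 28.1 CPM in Mtm1KO, with a log2 fold change of 0.37 (95% interval -0.49 to 1.22, adjusted p = 0.809).

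**Figure D2:**
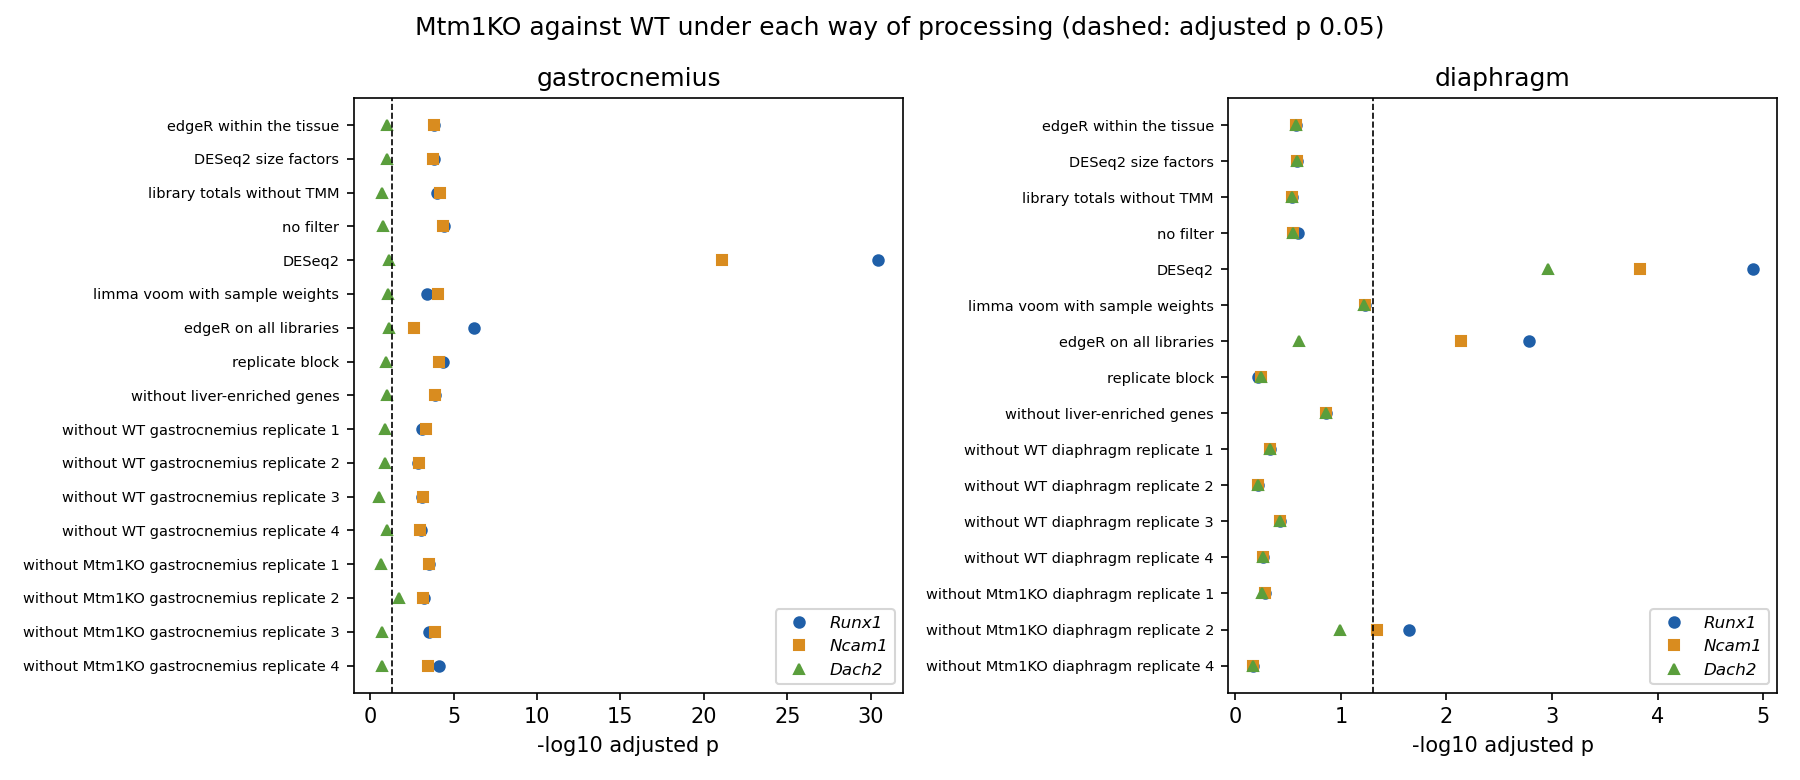
Evidence for a genotype effect on *Runx1* (circles), *Ncam1* (squares) and *Dach2* (triangles) as -log10 of the adjusted p, with one row per way of processing, for the gastrocnemius on the left and the diaphragm on the right; the dashed line is an adjusted p of 0.05. *Runx1* and *Ncam1* lie right of the line in every row of the gastrocnemius, whereas in the diaphragm they do so only with DESeq2, with edgeR on all libraries and without Mtm1KO replicate 2.

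None of the 4 genes that could be tested in the heart passed edgeR's test, in which 0.00656% of 15238 genes were called. At an unadjusted p under 0.05 from edgeR, reached by 8.88% of genes, 0 of the 4 passed, and DESeq2 called 0 after adjustment. DESeq2's unadjusted p was under 0.05 for *Ncam1* (0.0328) and *Hdac9* (0.0499), as it was for 1804 of 29522 genes. *Runx1* read 2.27, 2.07, 1.85 and 1.60 CPM in WT hearts and 1.25, 2.21, 2.28 and 3.24 CPM in Mtm1KO hearts. WT lay inside the Mtm1KO range, and the log2 fold change was 0.20 with a 95% interval of -0.41 to 0.81 (adjusted p = 0.768). *Ncam1* had the opposite sign from skeletal muscle, with 14.7, 9.41, 19.2 and 22.6 CPM in WT and 10.1, 16.6, 7.19 and 5.91 CPM in Mtm1KO. These ranges overlapped, and the log2 fold change of -0.74 (95% interval -1.54 to 0.07) did not pass (adjusted p = 0.546, unadjusted p = 0.0693 from edgeR).

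*Hdac4* was at 23.4 to 30.4 CPM in WT and 22.4 to 28.8 CPM in Mtm1KO hearts, a log2 fold change of -0.15 (95% interval -0.40 to 0.10, adjusted p = 0.594). *Hdac9*, whose product restrains MEF2-driven growth of cardiomyocytes, read 25, 40.2, 39.9 and 24.1 CPM in WT and 28.8, 48.3, 50 and 48.8 CPM in Mtm1KO. Of the Mtm1KO hearts, 3 lay above all WT hearts and 1 among them. *Hdac9* differed by 0.44 on the log2 scale (95% interval -0.06 to 0.93, adjusted p = 0.546).

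*Dach2* was almost unread in the heart. Its counts were 1, 0, 0 and 3 in WT and 1, 0, 0 and 0 in Mtm1KO, so no library exceeded the limit of 3 counts that a count of 0 allows and no fold change between genotypes is given. The liver gave little signal for the set. *Runx1* was at most 0.782 CPM, *Ncam1* at most 1.53 CPM, *Hdac9* at most 1.14 CPM and *Dach2* at most 1 count per library, while *Hdac4* was at 8.63 to 13.2 CPM. EdgeR called 0.0% of genes in the liver, and the 3 of the set that could be tested, *Runx1*, *Hdac4* and *Hdac9*, had an adjusted p of 0.969. They passed neither at an unadjusted p under 0.05 nor with DESeq2.

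Whether the genotype effects differed was then tested with edgeR on the libraries of both tissues together. Between the gastrocnemius and the heart it passed for *Runx1*, at 3.52 (SE 0.46, adjusted p = 0.000294), for *Ncam1*, at 2.49 (SE 0.42, adjusted p = 0.00121), and for *Hdac4*, at 0.72 (SE 0.18, adjusted p = 0.014), all on the log2 scale. In this contrast 9.89% of 16627 genes were called with a higher effect in the gastrocnemius. Each of the 3 remained called without any 1 of the 16 libraries. For *Hdac9* the difference was -0.72 with a 95% interval of -1.49 to 0.05 (adjusted p = 0.17).

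Between the diaphragm and the heart, *Ncam1* differed by 2.82 (95% interval 1.53 to 4.10) and *Runx1* by 2.13 (95% interval 1.03 to 3.22), but edgeR called neither (adjusted p = 0.177 and 0.186), as it called 0.00573% of 17466 genes. DESeq2 called both, *Ncam1* at an adjusted p of 0.00164 and *Runx1* at 0.0116, where 1.0% of genes were called higher. Without Mtm1KO diaphragm replicate 2 edgeR called both too, with *Runx1* at 2.51 (adjusted p = 0.0085) and *Ncam1* at an adjusted p of 0.019. *Hdac4* differed by 0.29 (95% interval -0.07 to 0.66) and *Hdac9* by -0.08 (95% interval -1.04 to 0.87).

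The 2 skeletal muscles were also set against each other, and none of the 5 differences passed in edgeR, in which 0.28% of genes were called, or in DESeq2. At an unadjusted p under 0.05, which 12.8% of genes reached, *Runx1* and *Hdac4* passed. *Runx1* came nearest, with an effect larger by 1.40 in the gastrocnemius (95% interval 0.17 to 2.64, adjusted p = 0.338). For *Dach2* the difference was -0.04 with a 95% interval of -1.10 to 1.03, an interval too wide to show that both muscles responded alike. These comparisons share the libraries of the gastrocnemius, the diaphragm and the heart with the within-tissue ones.

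**Figure D3:**
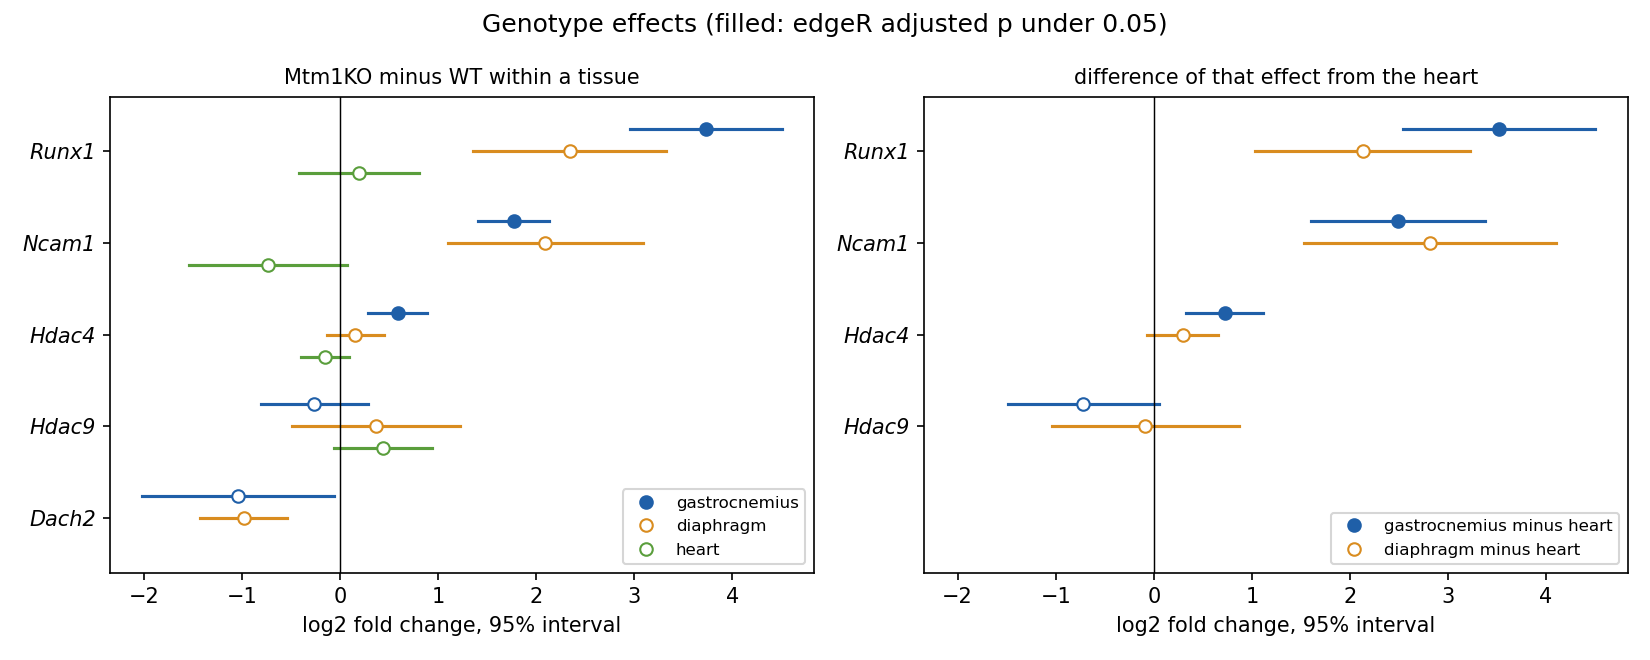
Left, log2 fold change of Mtm1KO over WT within the gastrocnemius (blue), the diaphragm (orange) and the heart (green); right, the gastrocnemius effect (blue) and the diaphragm effect (orange) minus the heart effect. Points are edgeR estimates, lines 95% intervals, and filled points have an adjusted p under 0.05, which *Runx1*, *Ncam1* and *Hdac4* reach in the gastrocnemius and in its difference from the heart; *Dach2* is not drawn for the heart.

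Before any loss of myotubularin, the 5 genes were not alike across muscles. The WT level of *Dach2* was the most tissue-bound, since per total count it was 44.4 times higher in the gastrocnemius than in the heart (95% exact interval 17.1 to 164.5, counting error only) and 334.1 times higher in the diaphragm (130.2 to 1227.6). These ratios rest on 4 counts in the 4 WT hearts, 3 of them in replicate 4. Without that library they were 133.7 (23.7 to 5304.9) and 1005.5 (180.2 to 39738.2), on 1 heart count. The WT gastrocnemius held less *Dach2* than the WT diaphragm by 2.45 on the log2 scale (SE 0.37, adjusted p = 0.000129). *Hdac9* went the other way and was lower than in the heart by 1.37 in the gastrocnemius (adjusted p = 0.000219) and by 0.85 in the diaphragm (adjusted p = 0.0337). The latter call was lost without WT diaphragm replicate 1 or 4 or WT heart replicate 2 or 3 (-0.62 to -0.80, adjusted p = 0.075 to 0.090).

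*Hdac4* was higher in the WT gastrocnemius than in the WT heart by 0.53 (adjusted p = 0.00195), but with scaling by library totals alone the difference was -0.04. *Ncam1* did not pass against the heart in either muscle (differences of -0.18 and -0.52, adjusted p = 0.603 and 0.31), but with library totals it was lower in the gastrocnemius by 0.75 (log2 difference -0.75, adjusted p = 0.036). *Runx1* was at 0.32 in the gastrocnemius (adjusted p = 0.409) and 0.89 in the diaphragm, where it passed narrowly (adjusted p = 0.0499). That call held only without Mtm1KO diaphragm replicate 1 or 2 or Mtm1KO heart replicate 1 or 4 and was lost without any of the other 11 libraries. Of the genes tested in the WT contrasts, 68.9% were called between the gastrocnemius and the heart, 48.3% between the diaphragm and the heart and 54.2% between the skeletal muscles.

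The scaling mattered for the gastrocnemius. With library totals in place of TMM the median log2 fold change over all genes moved from 0.02 to 0.35, and 7647 genes were called higher and 647 lower, against 2173 and 2306 with TMM. For the difference from the heart the split was 6577 and 405 without TMM and 1645 and 1652 with it. Relative to that median, *Runx1* stood at 3.72 with TMM and 3.71 without, *Ncam1* at 1.76 and 1.75, *Hdac4* at 0.57 under both, *Hdac9* at -0.28 and -0.27, and *Dach2* at -1.05 and -1.07. Without this subtraction *Hdac9* went from -0.26 to 0.08, close to the shift of the median over all genes.

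Other genes of the same pathways were counted from lists chosen with earlier results of these data known, leaving out the 5 genes. Of 15 acetylcholine receptor and postsynaptic genes, 9 rose in the gastrocnemius and none fell, beside 14.1% and 14.9% of all genes. Their median log2 fold change was 0.56 against 0.02 over all genes. *Chrnd* (2.26, adjusted p = 0.0032), *Chrna1* (1.77, adjusted p = 0.00055) and *Chrnb1* (1.1, adjusted p = 0.00035), which encode receptor subunits, rose, as did *Colq* (0.79, adjusted p = 0.0025), which anchors acetylcholinesterase at the synapse. None of the 15 passed edgeR in the diaphragm, where the median was 0.17, 4 had an unadjusted p under 0.05, beside 10.8% of all genes, and 1 was higher by DESeq2, beside 1.7%. Of the 10 tested in the heart none passed edgeR, 1 had an unadjusted p under 0.05, a share near the 8.88% of all genes, and 1 was lower by DESeq2, beside 0.352%. Of the same 10, the gastrocnemius effect exceeded the heart effect in 2, *Chrnb1* at 1.04 among them (adjusted p = 0.002), where 9.89% of all genes did.

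A list of 16 other genes known to be induced by denervation had a median of 1.73 in the gastrocnemius. Beside 14.1% of all genes that rose and 14.9% that fell, 14 of the 16 rose and none fell. Among them, *Ankrd1*, a stretch-responsive nuclear and sarcomeric protein gene, had a log2 fold change of 4.52 (adjusted p = 9.5e-05), *Gadd45a*, a stress-response gene, 2.32 (adjusted p = 0.00026), *Fst*, which encodes the myostatin antagonist follistatin, 1.86 (adjusted p = 0.00015), and *Myh8*, the perinatal myosin heavy chain gene, 1.05 (adjusted p = 0.00024). In the diaphragm the median was 0.71, and none passed edgeR, while 6 had an unadjusted p under 0.05 (10.8% of all genes) and 6 were higher by DESeq2 (1.7% of all genes). *Gadd45a* was at 0.16 there (adjusted p = 0.93) and *Ankrd1* at 5.32 (adjusted p = 0.26). In the heart 10 could be tested, none passed edgeR or DESeq2, 2 had an unadjusted p under 0.05, which 8.88% of all genes reached, and the median was -0.24. The gastrocnemius effect exceeded the heart effect in edgeR for all 10 genes that could be tested in the heart, against 9.89% of all genes, and the rest of the list had no fit there.

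*Myog*, chosen after its values were seen because DACH2 represses it, went from 20.8 ± 5.76 CPM (n = 4) to 76.0 ± 38.7 CPM (n = 4) in the gastrocnemius, a log2 fold change of 1.85 (adjusted p = 0.0038). In the diaphragm it went from 7.87 ± 1.61 CPM (n = 4) to 39.7 ± 22.3 CPM (n = 3), or 2.34 on the log2 scale (adjusted p = 0.26, DESeq2 4e-06). In WT hearts it averaged 0.00665 CPM.

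**Figure D4:**
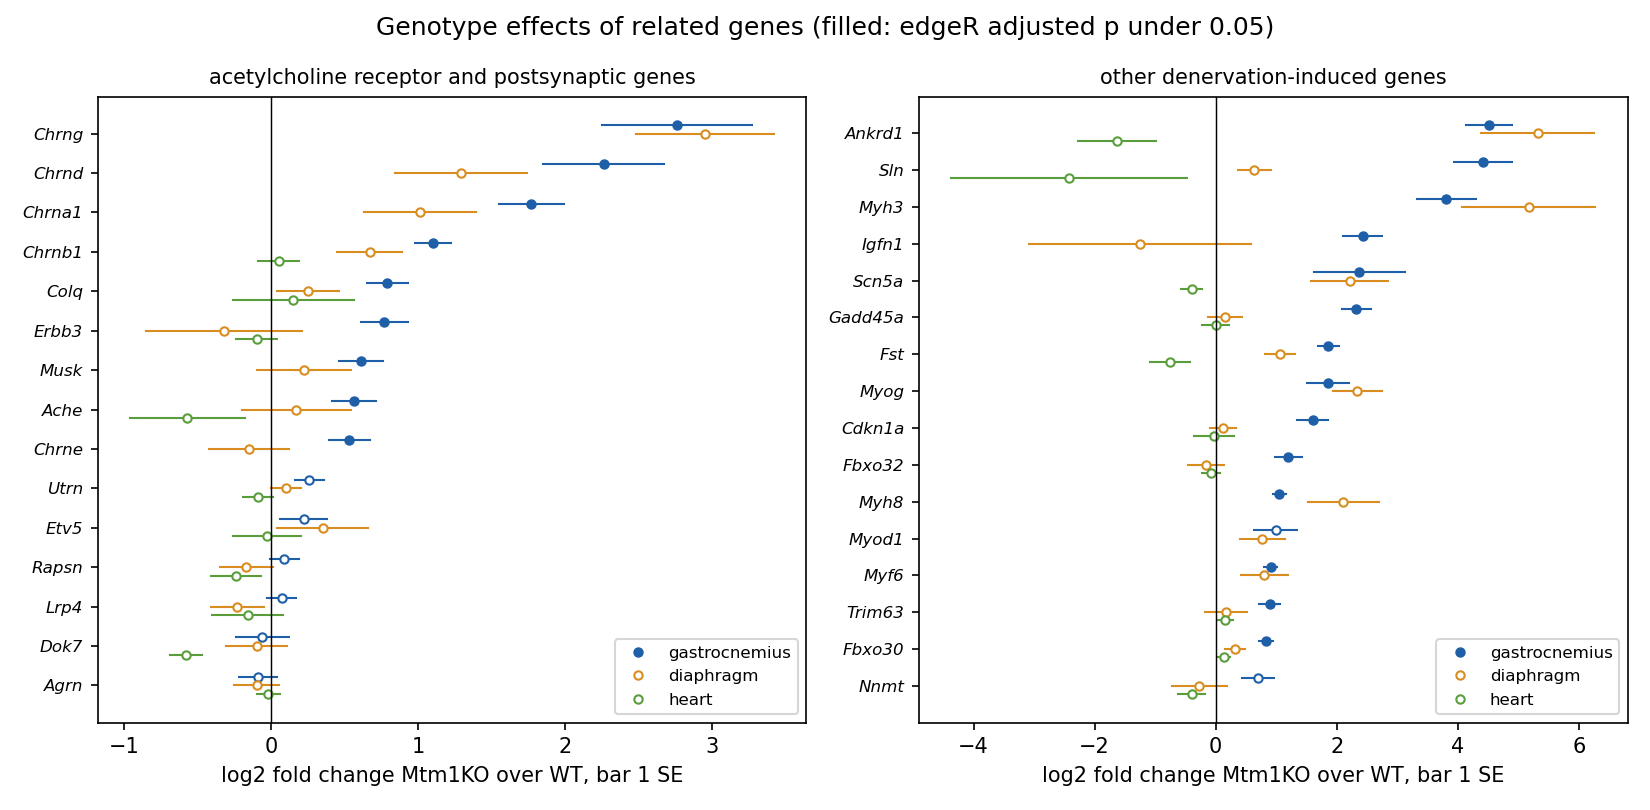
Log2 fold change of Mtm1KO over WT, with bars of 1 SE, for acetylcholine receptor and postsynaptic genes (left) and other denervation-induced genes (right) in the gastrocnemius (blue), the diaphragm (orange) and the heart (green); filled points have an edgeR adjusted p under 0.05. Filled points appear only for the gastrocnemius, 9 of 15 on the left and 14 of 16 on the right, all to the right of 0. Of all genes in this muscle 14.1% rose and 14.9% fell. Genes that failed the count filter in a tissue have no point there.

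Genes for partners of the 5 proteins were called in both directions, in shares to be read against the 14.1% of all genes that rose and the 14.9% that fell. Of 16 class II deacetylases, MEF2 factors and their kinases, 1 rose and 4 fell in the gastrocnemius (median -0.10). *Camk2d*, a kinase that exports HDAC4 from the nucleus, rose by 0.54 (adjusted p = 0.007), while *Camk2g*, of the same family, fell by 0.52 (adjusted p = 0.00093). *Hdac3* and *Ncor1*, the catalytic and scaffold parts of the complex that class IIa deacetylases recruit, fell by 0.36 (adjusted p = 0.0065) and 0.34 (adjusted p = 0.0097). Of the 16, 1 had a higher and 4 a lower effect in the gastrocnemius than in the heart by edgeR's test of the difference. That test called 19.8% of all genes in either direction. The 4 named genes passed it, but they were chosen by their p in the same gastrocnemius libraries. In the diaphragm none of the 16 passed edgeR, and 1 was higher by DESeq2, beside 1.7% of all genes. This was *Camk2d*, at 1.23 in edgeR (adjusted p = 0.3, DESeq2 0.023).

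Among the homeobox and coactivator genes that act with DACH2 in muscle, 2 of 9 rose and 3 fell (median -0.07). Of all genes 14.1% rose and 14.9% fell. The transcription factor gene *Six2* fell by 1.30 (adjusted p = 0.0018), and the coactivator genes *Eya1* and *Eya4* fell by 0.44 (adjusted p = 0.022) and 0.35 (adjusted p = 0.016). *Six5* rose by 0.44 (adjusted p = 0.039). Of the 8 that could be tested in the heart, none passed the test of the difference between the gastrocnemius and the heart in edgeR or DESeq2, and 2 had an unadjusted p under 0.05, which 34.7% of all genes reached.

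Among 7 tested Runx relatives and cofactors, *Runx2* rose by 0.84 (adjusted p = 0.017) and *Cbfb*, which encodes the common partner of Runx proteins, fell by 0.54 (adjusted p = 0.0056), 1 gene in each direction, which is near the shares of all genes. Of 9 tested relatives and modifiers of NCAM1, 1 rose, also near the share of all genes, and none fell. This was *St8sia2*, the sialyltransferase that adds polysialic acid to NCAM1, at 1.98 on the log2 scale (adjusted p = 0.0011) and from a level of 0.487 ± 0.227 CPM (n = 4). In the diaphragm none of the 9 passed edgeR, and 1 was higher by DESeq2, beside 1.7% of all genes. There too it was *St8sia2*, at 1.84 in edgeR (adjusted p = 0.26, DESeq2 0.0019). Of the 8 of this list that could be tested in the heart, 1 had a higher effect in the gastrocnemius and none a lower one. Of all genes 9.89% were called higher in that contrast. The 1 gene was again *St8sia2* (2.71, adjusted p = 0.016), which was named for its call in the same gastrocnemius libraries.

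Markers of other cell types moved with genotype in the gastrocnemius, where 14.1% of all genes rose and 14.9% fell. All 8 leukocyte markers rose, their sum going from 9.97 to 13.4 CPM in WT to 37.0 to 43.3 CPM in Mtm1KO, and the pan-leukocyte gene *Ptprc* from 1.13 to 1.65 CPM to 4.92 to 5.84 CPM. Macrophage markers rose in 9 of 10 cases, with sums of 62.0 to 108.8 CPM in WT and 187.6 to 227.3 CPM in Mtm1KO. RUNX1 is also a blood cell factor. Hearts held 53.5 to 68.2 CPM of leukocyte markers, more than the Mtm1KO gastrocnemius, with *Runx1* at 1.25 to 3.24 CPM. In the diaphragm the leukocyte sum was 57.5 to 144.3 CPM in WT and 68.6 to 161.0 CPM in Mtm1KO, and no marker passed edgeR or DESeq2.

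NCAM1 also marks satellite cells and Schwann cells. Of 8 satellite cell markers 3 fell in the gastrocnemius and none rose, where 14.9% of all genes fell and 14.1% rose. *Pax7*, the defining one, was at 6.01 to 7.31 CPM in WT and 2.32 to 3.70 CPM in Mtm1KO. *Myf5*, another of the 8, overlapped, at 2.95 to 3.34 CPM in WT and 2.30 to 4.29 CPM in Mtm1KO. The sums of the 8 overlapped too, at 111.6 to 121.9 CPM in WT and 105.9 to 131.5 CPM in Mtm1KO. *Sdc4*, the most abundant of them, averaged 43.9 CPM in WT and 60.6 CPM in Mtm1KO. None of the 9 Schwann cell markers passed, and their sums overlapped, at 117.3 to 435.6 CPM in WT and 183.0 to 547.5 CPM in Mtm1KO. EdgeR called 4 of 7 fibroblast markers and 6 of 8 white adipocyte markers higher, and the sums overlapped. The median log2 fold change of the 8 white adipocyte markers was 1.41. The most abundant of them, *Plin4*, which weighs most in their sum, averaged 498.4 CPM in WT and 348.9 CPM in Mtm1KO. Fibroblast sums were 3242.9 to 8646.2 CPM in WT and 3816.9 to 11018.6 CPM in Mtm1KO, and white adipocyte sums 581.0 to 949.5 CPM and 620.2 to 1133.2 CPM. Skeletal fibre markers summed to 201530.5 to 239754 CPM in WT and 134114.6 to 145820.1 CPM in Mtm1KO gastrocnemius, with 6 of 8 that fell and 2 that rose. In the heart no white adipocyte or hepatocyte marker passed edgeR. At an unadjusted p under 0.05, which 8.88% of all genes reached there, 7 of 8 white adipocyte markers passed (median log2 fold change -2.58). So did 7 of 8 hepatocyte markers (median 2.2). By DESeq2 6 white adipocyte markers were lower in the heart, beside 0.352% of all genes, and 1 hepatocyte marker was higher. The part of these cell types in the values of the 5 genes was not tested.

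**Figure D5:**
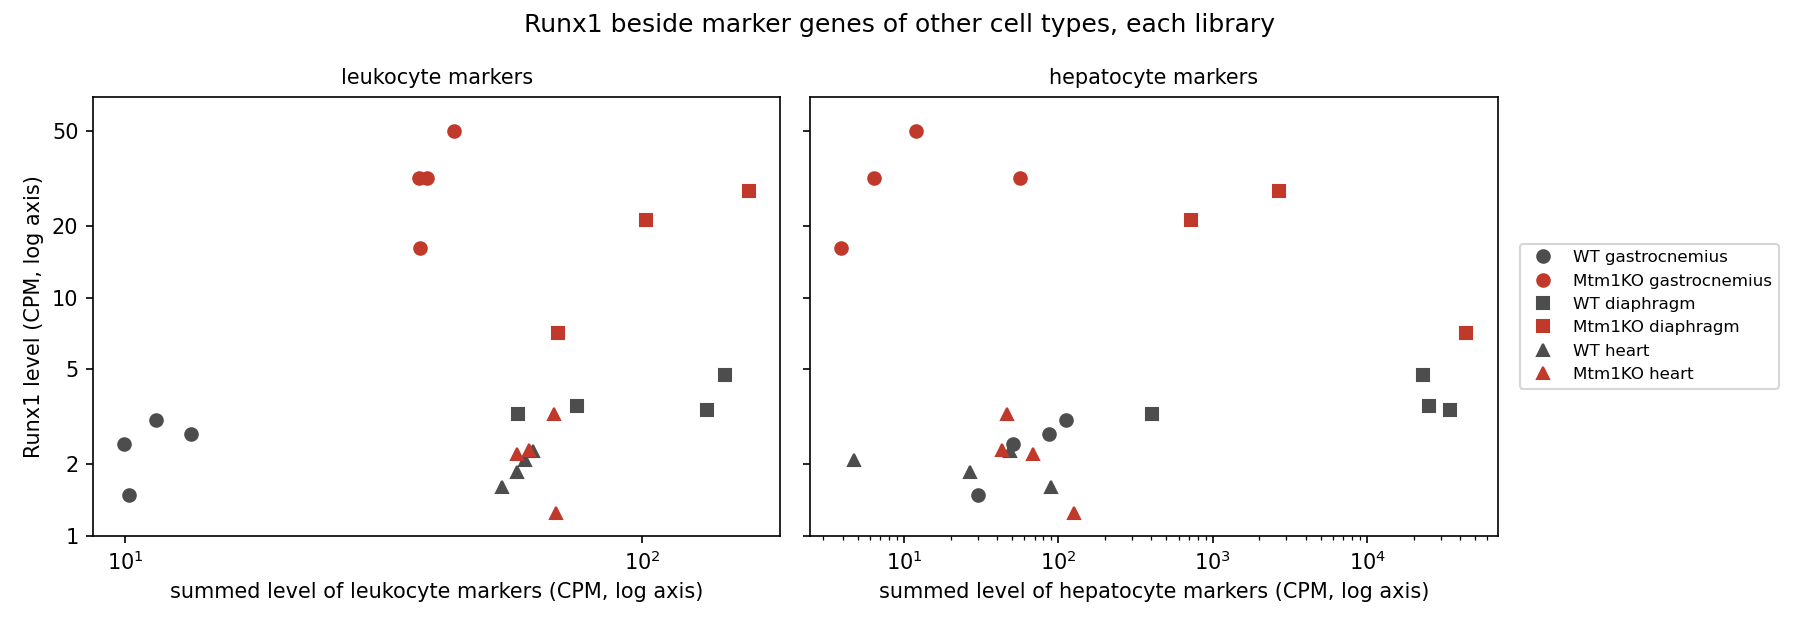
Level of *Runx1* in each striated muscle library against the summed level of 8 leukocyte markers (left) and 8 hepatocyte markers (right), all in CPM on log axes; grey is WT, red Mtm1KO, circles gastrocnemius, squares diaphragm and triangles heart. Hearts have more leukocyte signal than the Mtm1KO gastrocnemius and less *Runx1*, and the Mtm1KO diaphragm library with the most hepatocyte signal, 43884 CPM, has the lowest *Runx1* of its group, 7.10 CPM.

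Finally, genes with the most similar pattern were ranked by Pearson's r of log2 CPM over the 23 libraries of the gastrocnemius, the diaphragm and the heart, as a description, since libraries of a tissue share its expression level. Among 13953 genes that averaged 1 CPM or more, *Serpinb1a* (r = 0.951), *Eda2r* (0.947) and *Tubb6* (0.944) were nearest to *Runx1*, and *Cthrc1* (0.905), *Maged2* (0.887) and *S100a4* (0.881) to *Ncam1*. *Hdac4* was closest to *Pon2* (0.947), *Kcne1l* (0.946) and *Rab13* (0.935), and *Hdac9* to *Zfp827* (0.947) and *Dph6* (0.938). For *Dach2* they were *Gm26684* (0.979), *Gm5420* (0.971) and *Hoxc5* (0.971). Within the set, *Runx1* and *Ncam1* had r = 0.824, *Hdac4* had 0.751 with *Runx1* and 0.773 with *Ncam1*, and *Hdac9* had -0.715 with *Hdac4*.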

How the data were processed

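The transcriptome of 4 tissues of WT and Mtm1KO mice was measured at 5 weeks, and groups were taken from the labels. The deposited values are raw read counts per gene. The authors prepared libraries with the TruSeq Stranded mRNA kit, trimmed reads with cutadapt 1.10, mapped them to mm10 (STAR 2.5.3a) and kept only unique reads with 1 possible gene for counting (HTSeq 0.6.1p1, Ensembl genes). Whether the counting used strand is not given in the sources used here. Reads that map to several genes were not counted, which can lower genes with close copies.

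Here, low genes were removed by filterByExpr with a minimum count of 10, and the rest were scaled by TMM and tested with edgeR 4.0.16 in R 4.3.3 (quasi-likelihood F test, Benjamini-Hochberg adjustment, calls at an adjusted p under 0.05), within each tissue or in pairs of tissues. DESeq2 1.42.0, limma 3.58.1 (voom with sample weights), other scalings and filters, all libraries in 1 fit, the replicate number as a block, removal of genes at least 10 times higher in liver, and leaving out each library were alternatives. Simulated data were used to test edgeR, DESeq2 and voom for gastrocnemius, diaphragm, heart and each skeletal muscle paired with the heart. The other fits were not tested in this way. Gene positions and exon lengths come from GENCODE M21. The methods count each library of a group as 1 mouse, and p-values measure the spread between these libraries. Intervals on counts cover counting error only.

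The 5 genes and all lists were chosen with earlier results of these data known. Named were the 5 genes, per pathway list at most the 4 called genes with the lowest p in the gastrocnemius, and the 3 genes most correlated with each of the 5. *Myog* falls outside this rule. A result under this rule is not reported here. Library scaling by totals alone was added after seeing the data.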

Additional observations from a re-analysis of the deposited data

Results flagged for a closer look

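In 7 cases a single library stood apart from the rest of its group of 4, with a gap to the nearest library above Dixon's 95% critical value of 0.829 as a share of the group's range. Chance alone would set apart about 1 group in 20, and 30 groups were examined for the 5 genes. In the gastrocnemius these were *Hdac4* in Mtm1KO replicate 1 at 77.0 CPM, *Dach2* in WT replicate 3 at 3.15 CPM and *Dach2* in Mtm1KO replicate 2 at 1.72 CPM, each the highest of its group. Leaving out either *Dach2* library moved its value there most, to -0.61 without WT replicate 3 and to -1.54 without Mtm1KO replicate 2. In the heart, *Hdac9* was lowest in Mtm1KO replicate 1 at 28.8 CPM, and the only *Dach2* count in Mtm1KO, 0.0305 CPM, fell in the same library. In the liver, Mtm1KO replicate 3 held the highest *Ncam1*, at 1.53 CPM, and the single *Dach2* count of its group, at 0.0425 CPM. Both of these *Dach2* values are 1 read against 0 in the rest of the group, where the gap equals the range by construction, so they do not bear on the 1 in 20.

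The genotype effect differed between the gastrocnemius and the heart, by the test of the difference itself with edgeR, for *Runx1* (3.52 on the log2 scale), *Ncam1* (2.49) and *Hdac4* (0.72).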

How the results depend on the processing

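Over the 5 genes and the counts of called genes, 428 of the 491 results recomputed without leaving out a library kept their direction and their side of the threshold, 15 became called, 9 lost a call, 10 changed sign and 29 counts of genes moved by over 1.5 times. In the diaphragm, DESeq2 called *Runx1* (2.37), *Ncam1* (2.11) and *Dach2* (-0.97), and edgeR on all libraries called *Runx1* (2.32) and *Ncam1* (2.08). For diaphragm minus heart, DESeq2 called *Runx1* (2.13) and *Ncam1* (2.81), limma voom *Runx1* (2.45) and *Ncam1* (2.96), and edgeR on all libraries *Ncam1* (2.80). Asking also for an absolute log2 fold change over 1 ended the calls of *Hdac4* in the gastrocnemius (0.59), in its difference from the heart (0.72) and in WT gastrocnemius minus heart (0.53), and of *Runx1* (0.89) and *Hdac9* (-0.85) in WT diaphragm minus heart. The *Runx1* call in that last contrast also went with library totals (0.85), no filter (0.89) and limma voom (0.84), and voom called *Hdac4* there (0.24) and in WT gastrocnemius minus diaphragm (0.32).

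Library totals in place of TMM changed the sign of *Hdac9* in the gastrocnemius (0.08) and for diaphragm minus heart (0.04), of *Dach2* for gastrocnemius minus diaphragm (0.23), and of the WT differences of *Runx1* (-0.23) and *Hdac4* (-0.04) for gastrocnemius minus heart and of *Ncam1* (-0.18) and *Hdac4* (-0.21) for gastrocnemius minus diaphragm. They also called WT *Ncam1* for gastrocnemius minus heart (-0.75), and WT *Runx1* (-1.08) and *Hdac9* (-1.04) for gastrocnemius minus diaphragm. Library totals move all genes of a contrast together, so these changes are not separate findings about single genes. Limma voom changed the sign of *Hdac9* for diaphragm minus heart (0.21), and the cause was not tested. Differences of the *Dach2* genotype effect from the heart are not given, since its heart libraries held at most 3 counts.

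The libraries were not treated as pairs. Same-numbered libraries correlated in their deviations from the group means between -0.728 and 0.571 across genotypes of a tissue and between -0.217 and 0.341 across tissues of a genotype, and 10 of 28 correlated best with their own number in the other genotype. With the replicate number as a block, *Hdac9* changed sign in the liver (-0.00079) and for diaphragm minus heart (0.15), *Runx1* lost its call in WT diaphragm minus heart (0.90), and 0 genes were called in the diaphragm and 4 for diaphragm minus heart.

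Counts of genes called in the gastrocnemius were 8294 with library totals, 2925 with all libraries and 1024 with the fold threshold, beside 4479. In the diaphragm they were 438 with DESeq2, 9 with limma voom, 274 with all libraries and 4 without liver-enriched genes, beside 2, with 1806 genes at an unadjusted p under 0.05. In the heart they were 85 with DESeq2 and 5 with all libraries, beside 1, with 1353 at an unadjusted p under 0.05. The gastrocnemius minus heart difference gave 6982 with library totals, 1736 with all libraries and 1286 with the fold threshold, beside 3297, and the diaphragm minus heart difference 221 with DESeq2, 721 with limma voom and 48 with all libraries, beside 1.

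Leaving out 1 library at a time changed calls or signs as follows. *Dach2* ranged from -1.54 to -0.61 in the gastrocnemius and from -0.55 to 0.38 for gastrocnemius minus diaphragm. *Runx1* ranged from 1.97 to 2.72 in the diaphragm, from -0.03 to 0.40 in the heart, from 1.75 to 2.51 for diaphragm minus heart and from 0.76 to 0.98 in WT diaphragm minus heart. *Ncam1* ranged from 1.46 to 2.43 in the diaphragm, from 2.17 to 3.18 for diaphragm minus heart, from -0.65 to 0.33 for gastrocnemius minus diaphragm and from -0.37 to 0.04 in WT gastrocnemius minus heart. *Hdac9* ranged from -0.31 to 0.12 for diaphragm minus heart, from -1.01 to -0.62 in WT diaphragm minus heart and from -0.78 to -0.39 in WT gastrocnemius minus diaphragm, and *Hdac4* from 0.22 to 0.36 in the latter. Genes called numbered 0 to 162 in the diaphragm, with 162 without Mtm1KO replicate 2, 1 to 19 in the heart, with 19 without WT replicate 1, and 0 to 276 for diaphragm minus heart, with 276 without Mtm1KO diaphragm replicate 2. The 3 diaphragm libraries of Mtm1KO and the counts of *Dach2* limit what these data can show.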
